A study of Homo sapiens with 36 samples.

Results

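The sites described here are places on chromatin that held GATA2 in wild-type cells, had no called GATA2 peak in cells with less GATA2, and had one again after either of 2 tagged GATA2 proteins was put back. They came from CUT&Tag, in which an antibody tethers a transposase to chromatin and the released fragments are sequenced, in HUDEP-2, a line of immortalized red cell progenitors of human origin. Wild-type cells and GATA2-low cells (genotype GATA2+/-) carried a lentiviral empty vector, and GATA2-low cells also received lentiviral HA-GATA2 or HA-GATA2(T354M), called HA-T354M below. All infected cells were sorted for GFP. Anti-GATA2 was applied to all 4 of these cell populations and anti-HA, which binds the tag, to the 3 GATA2-low populations, with 4 libraries in each of the 7 groups. The labels call GATA2-low cells GATA2+/- and do not say whether they are 1 clone, and the anti-GATA2 antibody reads both their own GATA2 and the tagged proteins, which cannot be told apart in that assay. The anti-HA antibody reads the tagged proteins alone.

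Peaks of all 28 lists on chromosomes 1 to 22 and X were merged into 17277 sites. Members were chosen by measured values: a peak in 4 of 4 wild-type, in 0 of 4 GATA2-low empty-vector, in at least 3 of 4 HA-GATA2 and in at least 3 of 4 HA-T354M anti-GATA2 libraries. This left 542 members, which were 35.6% of the 1524 sites lost in GATA2-low cells and 3.14% of all sites. The first 2 conditions alone held for 13.7% of the 11156 sites with a peak in any wild-type or empty-vector library. Of the other lost sites, 343 returned with HA-GATA2 only (at least 3 HA-GATA2 and at most 1 HA-T354M library), 32 with HA-T354M only, 212 with neither, and 395 lay between these classes. A further 1298 sites, called never lost here, held a peak in all 8 wild-type and GATA2-low empty-vector libraries. One library titled GATA2-low, empty-vector anti-GATA2 replicate 1, has a wild-type genotype label; its title was followed, and without it there were 572 members, with the anti-HA shares given below at 54.3% and 5.29% and the tested counts at 146, 5 and 97. The conditions on members use no anti-HA library, so the anti-HA lists are the separate measure used below. Anti-HA peaks did enter the merging that set the bounds of sites; merging the 16 anti-GATA2 lists alone, an alternative added after the data were seen, also gave 542 members.

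GATA2 is a transcription factor that binds the letters GATA through zinc fingers and maintains blood stem and progenitor cells. It works with TAL1, LMO2 and LDB1 at enhancers, and as erythroid cells mature it is replaced at many sites by GATA1. T354M is a substitution in the C-terminal zinc finger, the finger that makes the main DNA contacts, and is inherited in families prone to myelodysplastic syndrome and acute myeloid leukaemia.

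Promoters are where the letters at or beside a member could be read, since RefSeq promoter windows (GRCh38.p14, 250 bases before to 50 after a gene's start) were given and a whole genome was not. Of the 491 members on chromosomes with such windows, 85 (17.3%) overlapped one, and they touched 135 windows. The GATA core was searched on both strands as the letters GATA with an A or a T before them and an A or a G after them. It stood in 32 of these windows (23.7%), at 21 of the 85 members, beside 25% of all 34789 windows. The share was 35.2% of 108 windows at sites that returned with HA-GATA2 only, 10.8% of 148 at sites that returned with neither, and 43.1% of 160 at never lost sites. Windows of 1 gene can overlap, so these shares are descriptions. A window could reach past its site, so a core in it was not always under the peak. Of the 89 member windows that held the mean wild-type summit, 26 (29.2%) had a core, a count not made for the other sets. The GC box letters GGGCGG stood in 77.8% of the members' windows, 75.7% of those at sites that returned with neither, 68.5% at HA-GATA2-only sites, 53.8% at never lost sites and 44.9% of all windows.

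The sequences below are the 250 bases before the start of 5 genes, read 5' to 3' on the gene's strand, with the GATA core in capitals. MTRFR (a mitochondrial translation release factor) and C4orf46 are shown because they hold a core and belong to the 6 promoter members with the highest wild-type ranks. BTG1 (an antiproliferative gene of blood cells) and IL13 (a cytokine of mast cells, basophils and T cells) are shown because they were in the gene lists and hold a core. E2F3, also listed and with a promoter member, holds no core and is not printed. A core is thus more frequent among the printed stretches than among promoter members, of which 21 of 85 had one. HINT1, the promoter member of highest wild-type rank, is shown as one with no core in its window. The mean wild-type peak summit of this member lay outside that window, so the letters at its summit were not read. For MTRFR, C4orf46, BTG1 and IL13 the mean summit lay inside the window.
MTRFR: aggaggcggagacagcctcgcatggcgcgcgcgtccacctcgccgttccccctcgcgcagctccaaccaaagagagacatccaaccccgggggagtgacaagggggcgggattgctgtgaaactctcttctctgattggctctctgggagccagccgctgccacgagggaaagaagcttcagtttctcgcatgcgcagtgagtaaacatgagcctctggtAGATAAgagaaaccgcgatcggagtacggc
C4orf46: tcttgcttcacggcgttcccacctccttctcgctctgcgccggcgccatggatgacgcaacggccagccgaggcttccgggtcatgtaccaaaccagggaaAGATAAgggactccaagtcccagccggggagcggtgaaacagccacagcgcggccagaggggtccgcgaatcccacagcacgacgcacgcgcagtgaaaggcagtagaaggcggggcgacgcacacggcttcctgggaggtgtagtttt
BTG1: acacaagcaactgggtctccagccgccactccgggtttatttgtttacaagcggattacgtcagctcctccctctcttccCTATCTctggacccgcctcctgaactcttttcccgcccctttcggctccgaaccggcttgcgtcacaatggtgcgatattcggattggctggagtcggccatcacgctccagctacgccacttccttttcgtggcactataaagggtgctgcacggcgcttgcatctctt
IL13: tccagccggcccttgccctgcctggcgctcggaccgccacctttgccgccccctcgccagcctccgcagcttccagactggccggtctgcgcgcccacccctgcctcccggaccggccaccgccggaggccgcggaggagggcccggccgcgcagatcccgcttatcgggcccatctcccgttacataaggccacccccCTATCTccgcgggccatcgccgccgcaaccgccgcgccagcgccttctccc
HINT1: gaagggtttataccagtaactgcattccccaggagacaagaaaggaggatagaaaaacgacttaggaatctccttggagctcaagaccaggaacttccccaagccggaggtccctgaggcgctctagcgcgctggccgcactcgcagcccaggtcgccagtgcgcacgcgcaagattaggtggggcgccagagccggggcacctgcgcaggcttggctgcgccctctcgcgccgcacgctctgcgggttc
The MTRFR stretch is chr12:123233186-123233435 on the + strand, with AGATAA at position -30 from the start site, and C4orf46 is chr4:158672057-158672306 on the - strand, with AGATAA at -149. BTG1 is chr12:92145847-92146096 on the - strand and IL13 is chr5:132656272-132656521 on the + strand, and both hold AGATAG on the opposite strand, at -170 and -51. HINT1 is chr5:131165257-131165506 on the - strand. All 5 members met the rule with 4 of 4 HA-GATA2 and 3 of 4 HA-T354M anti-GATA2 libraries. Their anti-HA peaks differed: the MTRFR member had one in 4 HA-GATA2 libraries and 1 HA-T354M library, HINT1 in 3 and 0, C4orf46 in 2 and 0, and BTG1 and IL13 in none of the 8. Letters of the core were therefore present at promoter members both with and without an anti-HA peak.

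The lists differed in length and depth, which touches every value below. Lists held 6577 to 9154 peaks in wild-type, 1839 to 3667 in GATA2-low empty-vector, 7085 to 12208 in HA-GATA2 and 2789 to 6326 in HA-T354M anti-GATA2 libraries. With anti-HA they held 1925 to 6089 peaks for HA-GATA2, 432 to 750 for HA-T354M and 1 to 13 for the empty vector. Read totals are unknown. The lowest background of a list, in fragments per window, ran from 0.222 to 0.302 in wild-type and from 0.153 to 0.213 in empty-vector anti-GATA2 libraries, so the libraries that define a loss were the shallower ones, and the part of depth in the choice of members was not tested. The same figure was 0.375 to 0.438 for HA-GATA2 and 0.356 to 0.411 for HA-T354M anti-HA libraries, ranges that overlap. Wild-type peaks stood in 4 of 4 libraries within 10 kb of the erythroid genes KLF1, GATA1, ALAS2, EPOR, TFRC, SLC4A1 and TAL1 and in 0 at HBG1 and HBG2. At genes of other lineages they stood in 2 libraries at SPI1, 1 at CEBPA, 0 at CSF3R, 3 at ITGA2B, 0 at GP9, PF4 and CPA3 and 4 at HDC and TPSAB1. A peak near a gene is occupancy, not expression.

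Member peaks sat in the middle of the wild-type lists. Each peak was ranked by its q within its own list, as a percentile in which 100 is the strongest. The median member percentile was 50.3, 50.7, 62.9 and 58.8 in the 4 wild-type libraries, and the recovered fragments at the summit had medians of 26, 26, 32 and 30. It was 59.2, 69, 72.7 and 69.2 in the HA-GATA2 anti-GATA2 lists and 43.8, 35.9, 49.4 and 52.7 in the HA-T354M anti-GATA2 lists. The HA-GATA2 and HA-T354M medians did not overlap, but these libraries chose the members, so no test is given. List length differed too, as every HA-GATA2 list was longer than every HA-T354M list (7085 to 12208 against 2789 to 6326 peaks). Within each of these 2 groups a longer list gave a higher median. Percentiles compared between groups here and below therefore carry list length, and its part was not tested. The mean wild-type percentile of a site had a median of 53.9 over members and 89.9 over never lost sites; sites that returned with HA-GATA2 only had 41.1 and those that returned with neither 28.6. Widths followed the same order, with a median of 649.5 bp for members, 928 bp for never lost sites, 547 bp for HA-GATA2 only and 456.5 bp for neither. A width spans all merged peaks of a site, and the sets were chosen by how many libraries held a peak. The order of widths is therefore not independent of that choice. Across the 542 members the wild-type percentile correlated with the HA-GATA2 (Pearson r = 0.53) and HA-T354M (r = 0.55) anti-GATA2 percentiles, a description over sites that share libraries.

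**Figure D1:**
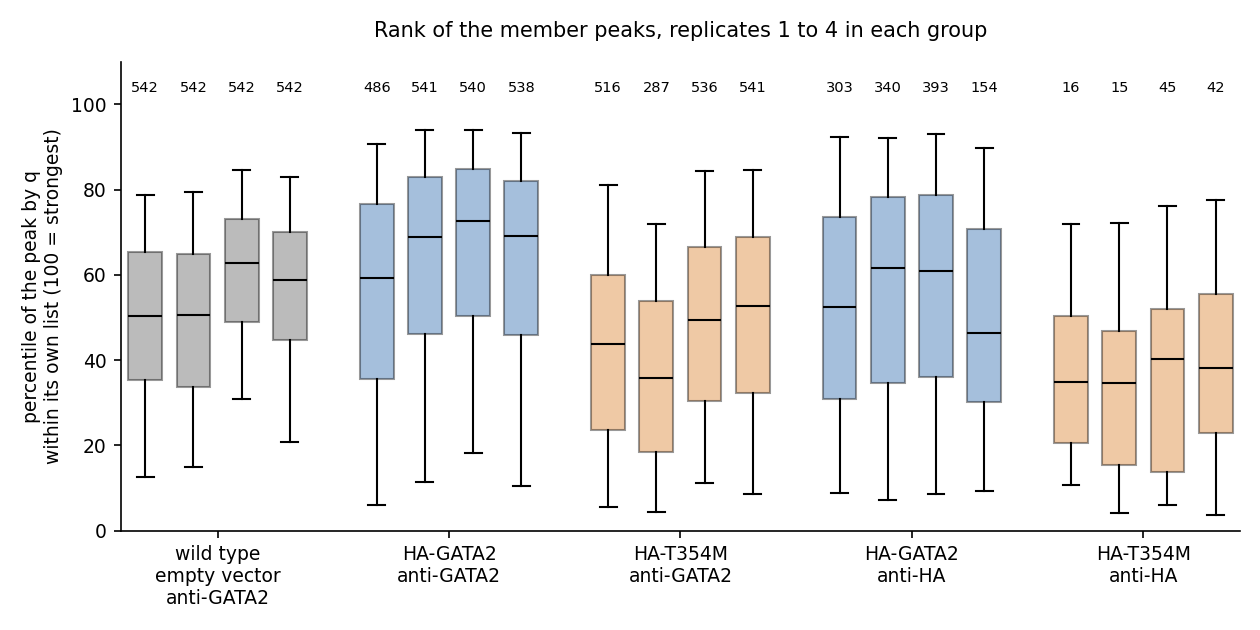
Percentile of the member peaks within each list (y axis, 100 is the strongest), by library (x axis, replicates 1 to 4 in each group); boxes span the quartiles with the median as a line, whiskers the 5th to 95th percentiles, and the number above each box counts members with a peak. HA-T354M anti-GATA2 replicate 2 held 287 of the 542 members and HA-T354M anti-HA libraries 15 to 45.

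Most members met the rule fully on the HA-GATA2 side and partly on the HA-T354M side. Of the 542, 247 were occupied in 4 of 4 libraries of both tagged proteins, 232 in 4 HA-GATA2 and 3 HA-T354M libraries, 7 in 3 and 4, and 56 in 3 and 3. HA-T354M replicates 1 to 4 held 516, 287, 536 and 541 members, and HA-GATA2 replicates 486, 541, 540 and 538. Of the 288 members in exactly 3 HA-T354M libraries, 255 were absent from replicate 2, the library with the shortest list of its group (2789 peaks). Just outside the rule stood 203 lost sites with at least 3 HA-GATA2 and exactly 2 HA-T354M libraries. Their median wild-type percentile was 47.6, against 47.3 for members in exactly 3 HA-T354M libraries and 59.5 for the 254 members in all 4.

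With the anti-HA antibody, HA-GATA2 was found at more of the members than HA-T354M. The HA-GATA2 share was larger at members than at all sites, while the HA-T354M shares were close in replicates 1 and 2. An anti-HA peak stood at 55.9%, 62.7%, 72.5% and 28.4% of members in HA-GATA2 replicates 1 to 4 (54.9% ± 18.9, SD, n = 4). It stood at 2.95%, 2.77%, 8.3% and 7.75% in HA-T354M replicates 1 to 4 (5.44% ± 2.99, SD, n = 4). Over all 17277 sites the shares were 24.3% ± 10.1 and 3.41% ± 0.953 (SD, n = 4 each). For HA-T354M they were 2.44%, 2.75%, 4.28% and 4.18% in replicates 1 to 4. A site needed a peak in any 1 list, whereas members had to hold several anti-GATA2 peaks. At members the lowest HA-GATA2 library was above the highest HA-T354M library, and replicate 4, with 1925 peaks the shortest HA-GATA2 list, was the low one. The empty-vector anti-HA libraries had 0 of 542 members each, which allows a share of up to 0.554%, by counting error only. List length moves with this difference. As a share of each list's own peaks, members took 7.27% ± 0.654 of the HA-GATA2 and 4.67% ± 1.45 of the HA-T354M anti-HA lists (SD, n = 4 each), with single values of 7.51%, 6.94%, 6.56% and 8.05% against 3.76%, 3.12%, 6.05% and 5.75%, which did not overlap. When the 8 lists were shortened to their 426 strongest peaks, an alternative chosen after the data were seen, an anti-HA peak stood at 3.92% ± 0.349 of members with HA-GATA2 and 3.14% ± 0.621 with HA-T354M (SD, n = 4 each), and the ranges of the libraries overlapped (3.69% to 4.43% and 2.4% to 3.87%). Lists of this length hold few members of either protein, and binding and list length cannot be told apart here.

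With both tagged proteins the anti-HA shares of members lay between those of never lost sites and those of sites that returned with HA-GATA2 only or with neither, and the order of these last 2 sets differed between the proteins. Sites that returned with HA-GATA2 only had an anti-HA peak at 28.3%, 37.9%, 44.3% and 6.12% in HA-GATA2 libraries and at 0.364% ± 0.437 in HA-T354M libraries, below the members in each of the 8 libraries. Sites that returned with neither had 8.25% ± 6.18 and 1.42% ± 1.02. With HA-T354M the order of these 2 sets rests on few sites, 5 of 343 and 7 of 212 with a peak in any library. Of the 7 sites, 1 had a peak in all 4 HA-T354M anti-HA libraries. Never lost sites had 86.3% ± 13.3 and 29.8% ± 6.46, above the members in each of the 8 libraries (SD, n = 4 throughout). Members in all 4 HA-T354M anti-GATA2 libraries had an anti-HA HA-T354M peak at 9.35% ± 5.34, those in exactly 3 at 2% ± 0.956, and the 203 sites just outside the rule at 0.246% ± 0.284. With lists of equal length the shares were 25.8% ± 0.707 and 23.2% ± 0.685 at never lost sites. These sets differ in wild-type rank too. Among the 253 members of wild-type percentile 50 to 75 the HA-T354M share was 6.13%, beside 4.2% of 143 never lost sites and 0 of 98 HA-GATA2-only sites in the same range, which allows up to 3.06%. It was 4.44% of the 214 members from 25 to 50, 8.33% of the 54 members above 75 and 0 of the 21 members under 25, which allows up to 14.3%. Above 75 the never lost sites (1144) stood at 33.3%. With HA-GATA2 the members of percentile 50 to 75 stood at 61.5% ± 21.2, the never lost sites at 61.2% ± 22.7 and the HA-GATA2-only sites at 30.9% ± 14.1, so at this rank members and never lost sites overlapped. Under 25 the members stood at 27.4% ± 14.7 and the 61 HA-GATA2-only sites at 31.1% ± 19.8, the reverse of their order over all ranks (SD, n = 4).

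**Figure D2:**
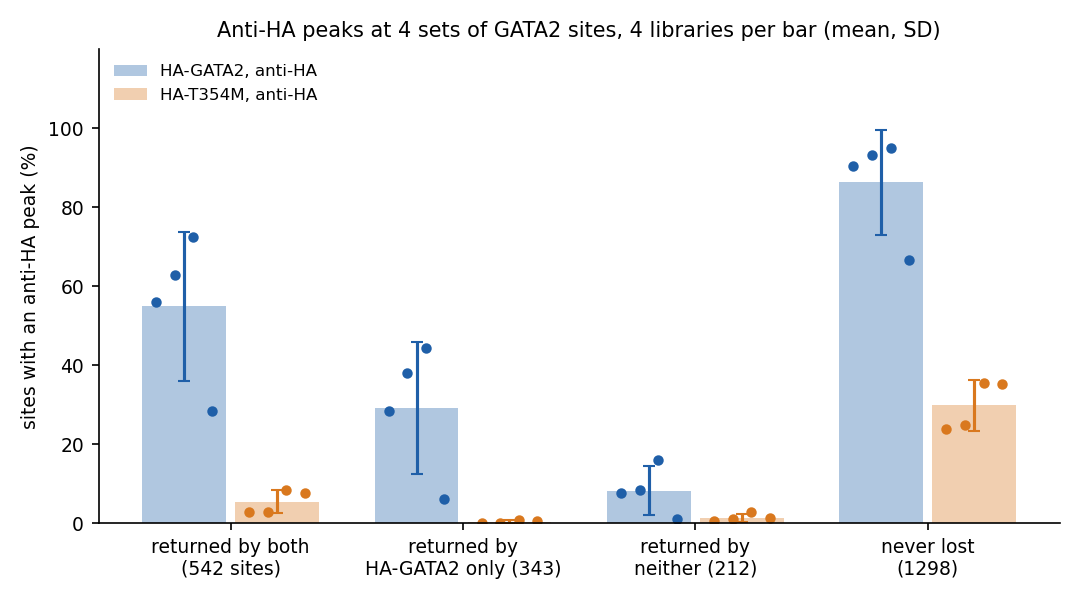
Percent of sites with an anti-HA peak (y axis) in 4 sets of sites (x axis, number of sites in brackets); points are the 4 libraries in replicate order, bars their mean and error lines the SD. Members lie at 28.4% to 72.5% with HA-GATA2 and 2.77% to 8.3% with HA-T354M, between the sites that returned with HA-GATA2 only and the never lost sites.

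At members, HA-T354M anti-HA peaks sat almost always where HA-GATA2 ones also stood, as they mostly did over all sites. Of the 542 members, 143 had an anti-HA peak in 4 HA-GATA2 libraries, 131 in 3, 75 in 2, 75 in 1 and 118 in none. For HA-T354M the counts were 5, 8, 14, 46 and 469. An HA-T354M anti-HA peak in any library stood at 73 members, and 72 of these (98.6%) also had an HA-GATA2 anti-HA peak, 49 of them in 4 of 4 libraries. The one without, inside TMEM143 on chromosome 19, had a single peak at percentile 0.1 of its list; it was singled out after its values were seen. In the other direction, 17% of the 424 members with an HA-GATA2 anti-HA peak had one with HA-T354M. Over all 17277 sites, 6913 had an HA-GATA2 anti-HA peak in any library, 1077 an HA-T354M one and 6944 at least 1 of the 2. Most HA-T354M sites of the whole series thus also held HA-GATA2, and the overlap was not particular to members. A further 117 members had no anti-HA peak of either tagged protein. The number of HA-GATA2 anti-HA libraries at a member correlated across the 542 sites with the HA-GATA2 anti-GATA2 percentile (Pearson r = 0.66, Spearman 0.67) and less with the wild-type percentile (0.32, Spearman 0.31), as a description.

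**Figure D3:**
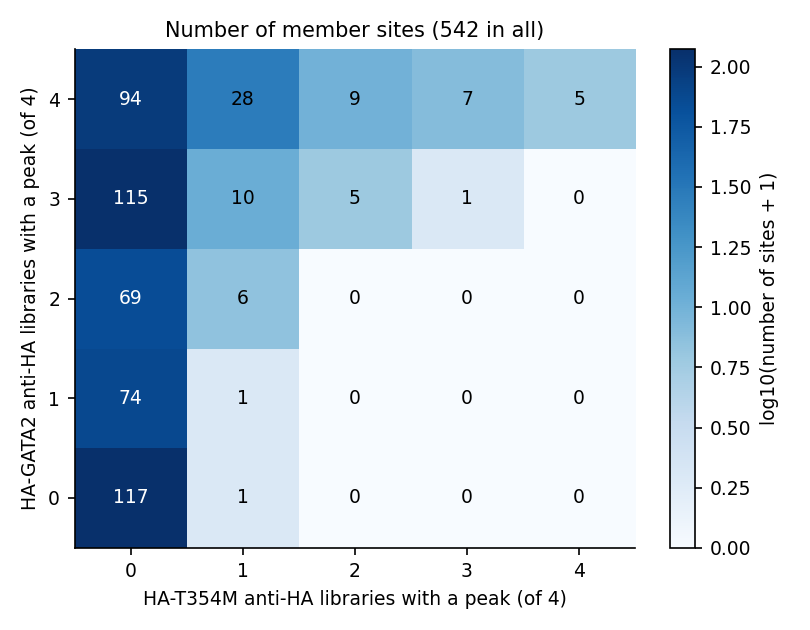
Number of members by the number of HA-T354M (x axis) and HA-GATA2 (y axis) anti-HA libraries with a peak; the colour is the log10 of the number plus 1. The 5 members in all 8 libraries are at the top right and 117 members with no anti-HA peak at the bottom left.

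Each site was then tested on its own by Fisher's exact test of how many libraries had a peak, in which only 4 of 4 against 0 of 4 can pass. Against the empty vector 143 members passed for HA-GATA2 (two-sided exact adjusted p = 0.0286), or 33.7% of the 424 with a peak in any of the 8 libraries, beside 25.3% of all 6916 such sites. For HA-T354M 5 members passed (exact adjusted p = 0.0286), or 6.85% of the 73 with any peak, beside 22.3% of all 1079 such sites. Both comparisons share the empty-vector libraries. Between the tagged proteins 94 members passed, all with 4 of 4 HA-GATA2 and 0 of 4 HA-T354M libraries (Fisher's exact test, adjusted p = 0.0321), 22.1% of 425, beside 13.6% of all 6944 sites with any peak; 0 members and 0 other sites stood the other way. The adjustment ran over sites occupied in exactly 4 of the 8 libraries, the only ones that can pass. Against the near-empty empty-vector lists this filter fixes the outcome: 1753 of 1754 such sites passed for HA-GATA2 and 241 of 241 for HA-T354M, so those 2 counts only say how many sites had a peak in 4 of 4 libraries. Between the tagged proteins 942 of 1059 such sites passed, and 94 of 104 members. Adjusted over all sites with any peak, Fisher's exact test called 0 sites in each comparison (smallest adjusted p = 0.113, 0.128 and 0.211), and the 143, 5 and 94 members then had only their unadjusted p of 0.0286. The labels name no separate cultures, so p measures only the spread between these libraries. Without HA-GATA2 anti-HA replicate 4 the first count became 267 and the third 202; without HA-T354M anti-HA replicate 1 or 2 the 5 became 8. Without any 1 of the 4 HA-T354M anti-HA libraries the third count fell from 94 to 0, since sites with 3 libraries then also enter the adjustment. Without GATA2-low empty-vector anti-GATA2 replicate 4, the longest list of its group (3667 peaks), there were 980 members, and the counts were 250, 9 and 163.

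The 5 members that HA-T354M anti-HA libraries all held were also in all 4 HA-GATA2 anti-HA libraries and all 4 anti-GATA2 libraries of both proteins. The first lies at chr7:113004741-113005876 (hg38), 64866 bp from SAMTOR, which encodes a sensor of S-adenosylmethionine for the mTORC1 pathway. Its wild-type percentiles were 46.5, 64.4, 75.6 and 52, its HA-GATA2 anti-HA percentiles 96, 98.3, 97.5 and 98.2 and its HA-T354M anti-HA percentiles 71.9, 49.6, 76.1 and 90.7. Fragments at its summit were 51, 71, 67 and 52 with HA-GATA2 and 19, 15, 19 and 25 with HA-T354M, so the groups did not overlap. The second lies inside TMCO4 at chr1:19752110-19752850, with 67, 77, 84 and 41 fragments against 19, 21, 16 and 20. The third lies at chr6:29490231-29491463, 2275 bp from the G protein-coupled receptor gene MAS1L, and was also among the 10 members of highest wild-type rank (mean percentile 87.7). Its anti-HA fragments were 50, 59, 71 and 35 against 15, 12, 15 and 16. The fourth lies inside CYB5R4, a cytochrome b5 reductase gene, at chr6:83957657-83958804 (70, 85, 101 and 45 against 20, 16, 29 and 29). The fifth lies at chr12:122155479-122156601, 8135 bp from MLXIP, which encodes a glucose-responsive transcription factor (71, 72, 81 and 52 against 22, 17, 19 and 29). At all 5 sites every HA-GATA2 count was above every HA-T354M count, at similar lowest backgrounds. These sites were chosen for their HA-T354M peaks, so this is a description. In the whole series 246 sites had a peak in all 4 HA-T354M anti-HA libraries. How many of those showed the same order was not counted, so it is not known to be particular to members.

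Next in this order stood members inside CNRIP1, ERICH3, HS1BP3 and TUBGCP2 and one 10061 bp from C2CD5, each with 3 of 4 HA-T354M and 4 of 4 HA-GATA2 anti-HA libraries. The CNRIP1 member (chr2:68305921-68306772) ranked from 98.5 to 99.3 in the HA-GATA2 and from 82.2 to 91.7 in the HA-T354M anti-GATA2 lists, but its 3 anti-HA HA-T354M peaks had percentiles of only 0.7, 27.2 and 66.5. The HS1BP3 member (chr2:20600917-20602355) was weak in wild type, with percentiles of 6.6, 7.6, 36.1 and 52, and its HA-T354M anti-HA peaks stood at 49.8, 62.8 and 62.5. Wild-type rank thus varied among these members, which were chosen for their HA-T354M anti-HA peaks. Over all 542 members the number of HA-T354M anti-HA libraries and the wild-type percentile had a Pearson r of 0.08. The HA-T354M share was 0 of the 21 members under percentile 25, 4.44% from 25 to 50, 6.13% from 50 to 75 and 8.33% above 75.

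Of the 10 members with the strongest wild-type peaks, 2 held an HA-T354M anti-HA peak. By mean wild-type percentile the first 10 lay 10502 bp from LYZL4 (92.3), 64503 bp from TBX18 (88.8), 232630 bp from FZD1 (88.6), inside USP14 (88), near MAS1L (87.7), inside USP47 (87.7) and inside SCNN1B (87.6), then 133782 bp from TOMM20 (87), 96002 bp from SPIN1 (86.8) and inside ANKRD22 (86.7). The LYZL4 member (chr3:42349466-42350262) had wild-type percentiles of 91.7, 90.6, 93.6 and 93.2, HA-GATA2 anti-GATA2 percentiles of 93.8, 95.6, 96 and 93, and HA-T354M ones of 70.8, 39.5, 66.6 and 74.1. Its HA-T354M values lay below all 8 others. It held HA-GATA2 anti-HA peaks at 93.6, 91.4, 96.4 and 89.7 and none with HA-T354M. USP47, a deubiquitinase gene, held a member (chr11:11866115-11866649) at which HA-T354M anti-GATA2 ranks of 91.4, 77.5, 88.3 and 92.5 overlapped the wild-type ranks of 85.5, 86.6, 90.5 and 88.2, also with no HA-T354M anti-HA peak. Of these 10, 8 had none, the TBX18 member had 1 library and the MAS1L member 4, while HA-GATA2 anti-HA peaks stood in 4 of 4 libraries at 8, in 3 at TOMM20 and in 1 at ANKRD22.

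Among the 117 members without any anti-HA peak, the 5 of highest wild-type rank lay inside MYO16 (mean percentile 83.4), 69121 bp from HPGD (74.8), inside AGPAT5 (72.7), 122360 bp from KTN1 (72.7) and 10951 bp from YWHAG (72.3). The MYO16 member (chr13:108769308-108769963) had wild-type percentiles of 85.2, 84, 85.9 and 78.4, then 37.2, 53.6 and 41.5 in 3 HA-GATA2 and 48.9, 21.9 and 55.6 in 3 HA-T354M anti-GATA2 libraries. Every tagged value there was below every wild-type value. At the HPGD member (chr4:174420104-174421054), near the prostaglandin-degrading enzyme gene, HA-GATA2 values of 76.1, 88.1, 84.3 and 80.6 overlapped the wild-type 69.2, 73.5, 82.5 and 73.8. Members without an anti-HA peak were mostly of lower rank: 11 of the 21 members of wild-type percentile under 25, 70 of the 214 from 25 to 50, 35 of the 253 from 50 to 75 and 1 of the 54 above 75.

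Members lay at promoter windows about as often as all sites did, 17.3% against 17.2%, and those at promoters carried fewer HA-GATA2 anti-HA peaks. Of the 542, 20.3% lay within 1000 bp of an end of a protein-coding gene, 43.2% inside one, 8.86% within 10 kb and 27.7% farther, beside 20.9%, 45.3%, 8.79% and 25.1% of all 17277 sites. The gene-end share was 25.9% for HA-GATA2-only sites, 51.4% for sites that returned with neither and 11.8% for never lost sites. Within the members it was 7.69% of the 247 in 4 of 4 libraries of both proteins and 30.6% of the 288 in exactly 3 HA-T354M libraries. At a promoter window lay 8 of 225 (3.56%) and 74 of 259 (28.6%) of these, counted on chromosomes with windows.

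**Figure D4:**
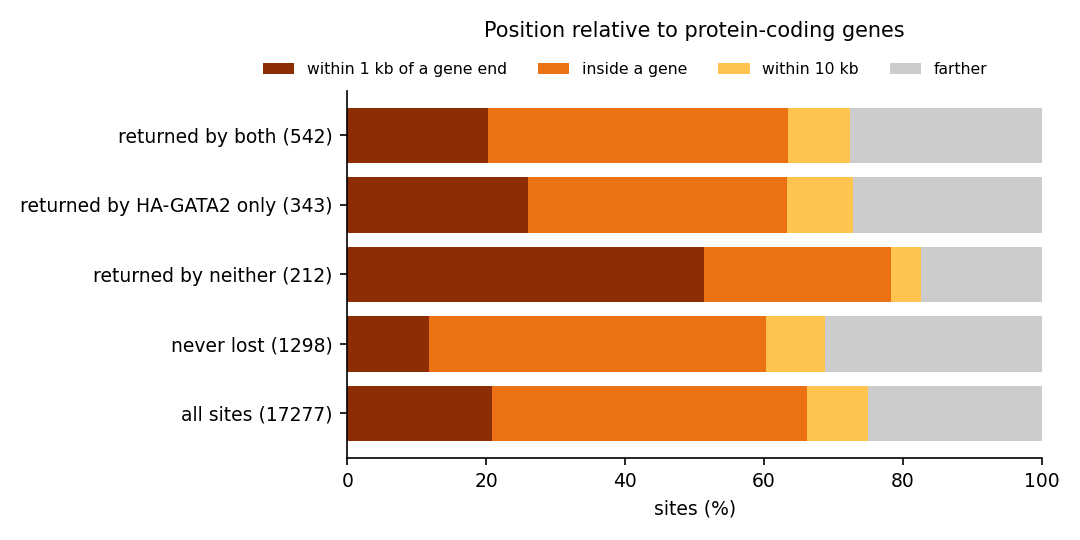
Share of sites (x axis, percent) by position relative to protein-coding genes for members, 3 other sets and all sites (number of sites in brackets). Gene ends hold 20.3% of members and 51.4% of the sites that returned with neither.

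At the 85 promoter members an HA-GATA2 anti-HA peak stood at 20%, 27.1%, 37.6% and 3.53% in replicates 1 to 4, and at the 406 others at 63.3%, 70.2%, 79.1% and 33%. The promoter share was lower in each of the 4 libraries. HA-T354M gave 2.35% ± 1.66 at promoter members and 6.28% ± 3.42 at the others (SD, n = 4 each). Promoter members also had lower wild-type ranks, with a median percentile of 41 against 57.5, and the part of rank in this difference was not tested. Never lost sites gave 80.3% ± 19.3 at and 86.9% ± 12.6 away from promoter windows with HA-GATA2, and 28.7% ± 4.58 and 29.6% ± 6.83 with HA-T354M. The promoter members with an HA-T354M anti-HA peak were 6, at HSPA8 (2 libraries) and E2F3 (2) and at MTRFR, LATS1, UMAD1 and ING1 (1 each), listed after their values were seen. All 6 also had HA-GATA2 anti-HA peaks, in 3 or 4 libraries. HSPA8 encodes a constitutive heat shock chaperone, E2F3 a cell cycle transcription factor, LATS1 a Hippo pathway kinase and ING1 a chromatin reader.

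**Figure D5:**
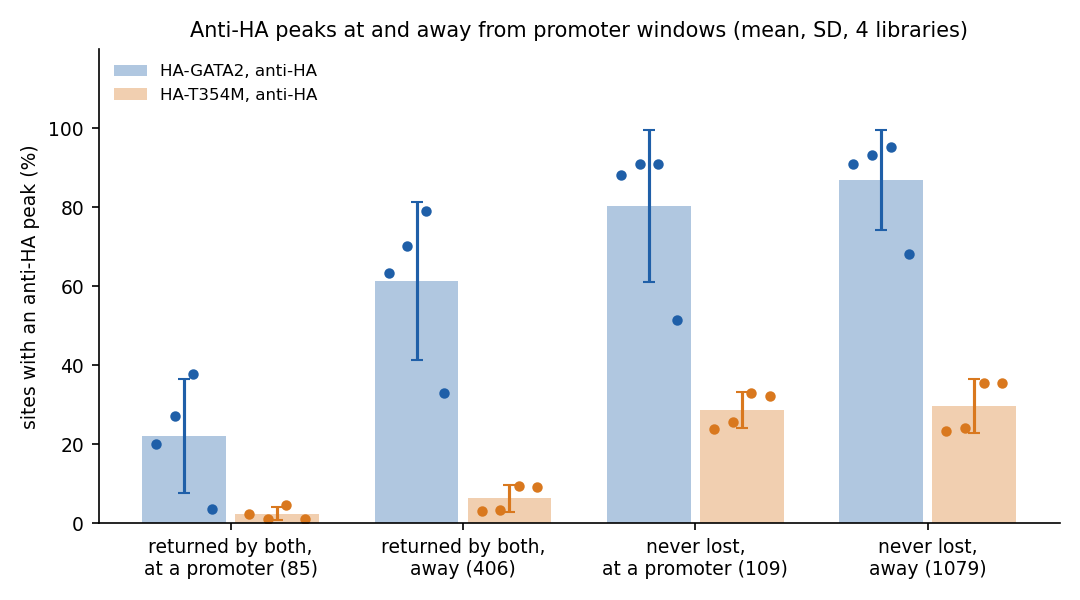
Percent of sites with an anti-HA peak (y axis) at and away from promoter windows (x axis) for members and for never lost sites; points are the 4 libraries in replicate order, bars their mean and error lines the SD. HA-GATA2 shares of promoter members run from 3.53% to 37.6% and those of the other members from 33% to 79.1%.

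Member peaks of the different libraries had nearby summits, though with anti-GATA2 the summits lay closer together at never lost sites. The median distance of a summit from the mean wild-type summit of its site was 27.7 bp in wild-type, 25 bp in HA-GATA2 and 25 bp in HA-T354M anti-GATA2 libraries. For a wild-type peak this mean was over the other wild-type libraries. At never lost sites these medians were 14, 13.25 and 14.25 bp. At members the median was 29.8 bp for HA-GATA2 and 45.1 bp for HA-T354M anti-HA peaks, the last over 118 peaks. The HA-T354M anti-HA medians per library were 42.4, 59.2, 48 and 38.1 bp and the HA-GATA2 ones 30.2, 27.8, 31 and 28.4 bp, which did not overlap; the HA-T354M libraries held few member peaks, 16, 15, 45 and 42. At never lost sites the anti-HA medians were 25 bp for HA-GATA2 and 34 bp for HA-T354M.

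Members were spread over the genome. Chromosome 6 held 55 (10.1% of members, 8.17% of all sites), chromosome 8 held 51 (9.41%, 5.87%) and chromosome 1 held 46 (8.49%, 9.6%). Of the members, 12 (2.21%) lay within 10 kb of another member, beside 2.52% of all sites. Within 10 kb of a never lost site lay 33 members (6.09%), beside 6.8% of all sites. GCSAML was the one protein-coding gene with 3 members in its body or within 10 kb of it (chr1:247535349-247535882, chr1:247548019-247548653 and chr1:247557190-247558064). All 3 had peaks in 4 of 4 libraries of both tagged proteins with anti-GATA2. Their anti-HA peaks stood in 1, 2 and 4 HA-GATA2 libraries, and the last of them alone had HA-T354M peaks, in 2. By nearest gene, MYC had 4 members, up to 384101 bp away, and CRIM1 and RREB1 had 3 each.

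Near genes of the GATA2 and TAL1 network, 4 of 25 genes had a member in the body or within 10 kb, beside 504 of 19974 (2.52%) of all protein-coding genes, longer genes having more room for one. They were TAL1, the cofactor genes ZFPM1 and ZFPM2 (FOG1 and FOG2), with 2 members each, and CBFB, the partner subunit of RUNX1. By the same count 8 of the 25 genes had a lost site of any class and 10 a never lost site. Among housekeeping genes 3 of 27 (11.1%) had a member. The TAL1 member (chr1:47238939-47239938) lay 6604 bp from the gene. Its percentiles were 50.5, 58.2, 61.8 and 61.3 in wild type, 89, 84.3, 85.7 and 87.1 with HA-GATA2 and 61.4, 61.5, 79.7 and 85 with HA-T354M, all with anti-GATA2. The HA-GATA2 values stood above all wild-type ones, and the HA-T354M values overlapped both. Its anti-HA peaks stood at 24.5, 72.4, 72.2 and 32.1 with HA-GATA2 and in no HA-T354M library. Gaps between anti-GATA2 ranks, here and below, come from libraries that chose the members, and how many members showed one was not counted. Over all members the mean of the library medians was also higher with HA-GATA2 (67.5) than in wild type (55.7).

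The ZFPM1 members differed from each other. The one at chr16:88461141-88462573 had low percentiles throughout, 39.5, 6.9, 33 and 36.7 in wild type and 10.9, 28.6, 32.6 and 29.7 with HA-GATA2, and an anti-HA peak in 1 HA-GATA2 library. The one at chr16:88512833-88513683 had 30.1, 26.2, 49.4 and 63.9 in wild type, 70.8, 83.6, 87.5 and 84.4 with HA-GATA2 and 46, 28, 68.2 and 83 with HA-T354M, and anti-HA peaks in 3 HA-GATA2 libraries. Neither had an HA-T354M anti-HA peak. One ZFPM2 member, on chromosome 8, was among the few with one: its HA-GATA2 anti-HA percentiles were 96.1, 95.5, 98.5 and 85.1, and HA-T354M replicate 3 held it at 83.2. The CBFB member (chr16:67055679-67056126) had anti-HA peaks in 2 HA-GATA2 and 0 HA-T354M libraries.

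Of 40 other haematopoietic transcription factor genes 2 had a member, ID2 and NFIA. The ID2 member, 83 bp from this inhibitor of E proteins, ranked low, at 10.2, 43.5, 31.9 and 19.7 in wild type and at 2.8 to 7.4 in the tagged anti-GATA2 lists, and held anti-HA peaks in 3 HA-GATA2 libraries. NFIA, a factor that favours erythroid over granulocytic fate, held a member inside its body (chr1:61244022-61244539) at 70.1, 67.9, 71.7 and 66.3 in wild type and with no anti-HA peak. Of 27 globin and heme genes, BLVRA, which encodes biliverdin reductase A, alone had a member (7115 bp away), with anti-HA peaks in 3 HA-GATA2 libraries. Of 39 red cell membrane, blood group and iron genes, SLC4A1 (band 3, the anion exchanger) and CA1 (carbonic anhydrase 1) had one each. The SLC4A1 member (chr17:44242896-44243614) lay 2685 bp from a never lost site, and its percentiles were 23.7, 18.9, 39.9 and 46.1 in wild type and 56.3, 63, 75.6 and 77.1 with HA-GATA2, which did not overlap. With HA-T354M it had peaks in 3 anti-GATA2 libraries, at 44.3, 35.4 and 48.1, and no anti-HA peak.

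Of 27 mast cell, basophil and eosinophil genes, 4 had a member: IL1RL1 (the interleukin 33 receptor), IL13, LTC4S (leukotriene C4 synthase, whose member lies inside the neighbouring MGAT4B) and ENPP3 (the basophil surface enzyme CD203c). The IL1RL1 member (chr2:102335538-102336419) stood at 83.6, 72.3, 77.9 and 77.9 in wild type, 88.5, 88.5, 90.3 and 91.5 with HA-GATA2 and 56.3, 38.3, 70.9 and 72.4 with HA-T354M. HA-GATA2 was above and all but 1 HA-T354M value below the lowest wild-type value. It had anti-HA peaks in 4 HA-GATA2 and 0 HA-T354M libraries. ENPP3 had wild-type values of 59.8, 36, 73.8 and 70.5, HA-GATA2 ones of 73.8, 82.3, 79.5 and 87.2, and no anti-HA peak. IL13, whose promoter is printed above, had 55.5, 21.6, 42.6 and 41.8 in wild type and 4.6, 19.8 and 14 in 3 HA-T354M libraries, all below the wild-type range.

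The remaining lists held few members. Of 30 cytokine signalling genes these were PIM1, a serine/threonine kinase, and BMPR2, a receptor for bone morphogenetic proteins. The PIM1 member (chr6:37177146-37178201) stood at 25.1, 45.5, 63.3 and 57.4 in wild type, at 88.2, 87.8, 91.9 and 89.6 with HA-GATA2, above all wild-type values, and at 57.6, 50.7, 74.3 and 77.2 with HA-T354M, and had anti-HA peaks in 4 HA-GATA2 and 0 HA-T354M libraries. Of 30 cell cycle genes E2F3 and BTG1 had one, of 30 chromatin regulators KDM6A, a histone H3K27 demethylase gene (anti-HA in 4 HA-GATA2 and 0 HA-T354M libraries), and of 30 autophagy genes SQSTM1, through the same site as LTC4S. No member lay at any of 26 megakaryocyte genes or 26 genes of unrelated tissues, while 3 of 27 housekeeping genes had one, YWHAZ, EEF1A1 and CHMP2A. The YWHAZ member ranked at 7.2, 8.2, 48.5 and 7.9 in wild type and had no anti-HA peak; the EEF1A1 member, at 62.6, 54.9, 71.1 and 65.4, had one in 3 HA-GATA2 libraries. Across these lists, HA-T354M anti-HA peaks stood at the ZFPM2, E2F3 and CHMP2A members only, in 1, 2 and 1 library.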

How the data were processed

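CUT&Tag peak lists of 28 libraries in 7 groups of 4 were analysed; 8 IgG libraries of the 36 described were not used here. Groups came from titles, also for replicate 1 of the GATA2-low empty-vector anti-GATA2 group, whose genotype label says wild-type. Peaks were made with MACS2 2.2.7.1 after Bowtie2 2.2.5 on hg38, and cutadapt 3.3, FastQC and deepTools 3.5.3 are also named, per the submitters' processing notes; no settings are given in the sources at hand. The authors deposited peaks per library, each with a linear fold enrichment ratio over local background, p and q as -log10 values, and a score computed from q. These per-peak values of the authors served only for ranks, filters and fragment numbers within a list.

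Of 120964 peaks, 455 off chromosomes 1 to 22 and X were left out. The other 120509 were merged into sites (overlap of 1 bp). Fragments and background at a summit were worked out from each peak's deposited fold enrichment and -log10 p-value, matching within 0.03%. This was done for wild-type and empty-vector anti-GATA2 lists and for tagged anti-HA lists. The tagged anti-GATA2 lists were taken as scaled by the caller and left out of this step. Whether such scaling moved their calls or ranks against wild-type lists was not tested. A percentile is a peak's rank by q within its list, and the best peak of a library at a site was used. Sites were tested with Fisher's exact test (scipy 1.17.1, two-sided, Benjamini-Hochberg, threshold 0.05), tested on simulated data. Gene positions came from a RefSeq table (GRCh38.p14) and coordinates are 1-based on hg38; the promoter table held no chromosome 8 windows used here.

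The members and gene lists were chosen with earlier results of these data known. Named members are the first 10 by anti-HA libraries (HA-T354M, then HA-GATA2, then rank) and by wild-type percentile, the first 5 by wild-type percentile with no anti-HA peak, those near listed genes, genes with 3 members, and for sequences 6 promoter members by wild-type percentile. Alternatives were a -log10 q of at least 15, trimmed peaks, lists of equal length, a larger overlap, other numbers of libraries, left-out libraries, a wider adjustment and a replicate block. A whole genome was not used here, so sequences away from promoter windows were not analysed. The value of 1 erythroid marker gene is not reported here.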

Additional observations from a re-analysis of the deposited data

Results flagged for a closer look

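In 34 groups of 4 libraries the gap between the extreme library and its nearest neighbour was compared with the group's range, a check that chance alone passes in about 1 in 20 groups; 2 were marked. HA-T354M anti-GATA2 replicate 2 held 53% of the members, against 95.2% to 99.8% in the other 3 libraries of its group, and had the fewest peaks of the group (2789 against 4652 to 6326). HA-GATA2 anti-GATA2 replicate 1 held 89.7%, against 99.3% to 99.8%, and also had the fewest peaks of its group (7085 against 11047 to 12208). Both shares come from libraries that chose the members, which need only 3 of 4 in each tagged group.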

How the results depend on the processing

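The number of members, 542, was 446 with a -log10 q of at least 15, 532 with peaks trimmed around the summit, 800 with at least 2 of 4 libraries of each tagged protein, 247 with all 4 of 4, and 24 when each anti-GATA2 list was shortened to its 1823 strongest peaks; without single libraries it ranged from 542 to 980, the latter without GATA2-low empty-vector anti-GATA2 replicate 4. An overlap of at least 100 bp changed nothing, since the shortest peak spans 158 bp. With anti-GATA2 lists of equal length the anti-HA shares were 94.8% and 13.5%, the counts of members that passed 19, 1 and 12 (HA-GATA2 and HA-T354M against empty vector, then against each other), and the share inside or within 1000 bp of a gene 41.7%; with a -log10 q of at least 15 that share was 57.8% and the HA-T354M count 2. With anti-HA lists of equal length, chosen after seeing the data, the HA-GATA2 share was 3.92% and the HA-T354M share 3.14%; sites merged from the 16 anti-GATA2 lists alone, also added then, gave 542 members. The 3 counts ranged from 143 to 267, 5 to 9 and 0 to 202 without single libraries. The 267 and 202 arose without HA-GATA2 anti-HA replicate 4 and the 9 without that empty-vector library, while the 0 arose without any 1 of the HA-T354M anti-HA libraries, when sites with 3 libraries also enter the adjustment. With the wider adjustment the counts were 0, 0 and 0. With same-numbered libraries as pairs (replicate block) an exact sign test also gave 0, 0 and 0, since its smallest p is 0.125; same-numbered libraries correlated between -0.0508 and 0.0495 and best with their own number in 7 of 28 cases, so the numbers were not taken as pairs. Absence here means no called peak at the depth of a list, and read totals were not used here.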
